A study of Drosophila melanogaster with 21 samples.

Results

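The genes described here are the 94 Drosophila melanogaster genes for which the deposited RNA immunoprecipitation table lists 4 or more transcripts. They were chosen by counting the transcript rows of each gene, with shot left out by name, and no measured value entered the choice beyond the authors' own selection of rows. Together they hold 388 transcripts, out of 2168 genes and 4928 transcripts in the table. Of these genes 84 had 4 transcripts, 9 had 5 (ush, vap, E2f1, Rb97D, Nipped-B, CtBP, alpha-Man-Ia, Amun and CG43736) and 1, dlg1, had 7. The RefSeq Release 6 annotation lists between 4 and 25 transcripts for them, with a median of 8, so the table holds a selection for most. Only 8 of the 94 genes had as many transcripts in the table as in RefSeq. The other 2073 genes of the table, leaving out shot, had 2 or 3 transcripts.

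The study addressed the RNA targets of topoisomerase 3-beta (gene Top3beta) in embryos. In the RNA immunoprecipitation (RIP-seq), 3 samples carried Top3b-Y332F::eGFP, a fusion of enhanced green fluorescent protein to a form with its catalytic tyrosine replaced by phenylalanine, and 6 carried Top3b::eGFP, the same fusion without that change; they are called Y332F-eGFP and Top3b-eGFP here. Total RNA came from embryos of the genotypes Top3bY332F, Top3b26 and Top3b[delta]RGG (labelled delRGG) and from wild type, with 3 samples each. The labels give no embryo age, no promoter for the fusions and no word on whether the untagged gene was still present.

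Topoisomerase 3-beta is a type IA topoisomerase that can act on RNA as well as DNA, and its catalytic tyrosine forms the transient bond to the nucleic acid. RGG boxes are stretches rich in arginine and glycine that bind RNA in many proteins. One gene can give several transcripts through different start sites, splicing and ends, and these may differ in the protein they encode or in the untranslated parts to which RNA-binding proteins attach.

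The quantity followed was the share of a transcript, its value as a percentage of the summed values of the listed transcripts of the same gene in the same sample. A factor that scales a whole sample cancels in a share. The column sums ran from 1414940 to 3429210 deposited units, and between 14 and 32 of the 388 transcripts were listed at 0 in a sample. Top3beta itself did not change in the immunoprecipitates at the test used (log2 change -0.21, SE 0.22, limma adjusted p 0.498). In total RNA it averaged 125 ± 19.1 CPM (reads scaled to a common library size) in Y332F, 22.1 ± 1.11 in Top3b26, 134 ± 8.35 in delRGG and 114 ± 17 in wild type (SD, n = 3 each).

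The way a gene's sum was divided is given first as a description, since the choice of genes largely sets it. Each has at least 4 listed transcripts, and each of those reached a share of 10% in at least 3 of the 9 samples. The leading transcript, the one with the highest mean share, held a median of 39.3% of its gene in Y332F-eGFP (range 24% to 67.5%) and 38.3% in Top3b-eGFP (range 20.4% to 65.5%). The effective number of transcripts, the inverse of the sum of squared mean shares, had a median of 3.37 in Y332F-eGFP and 3.45 in Top3b-eGFP. In 16 genes the leader held over 50% in Top3b-eGFP. In 22 of the 94 genes (23.4%) the same transcript led in all 9 samples. These 22 were Atpalpha, cg, CG15445, CG17233, CG5504, Cnot4, conu, Cp110, dikar, Eaf, gw, H, Hrb27C, Mbs, milt, Mnt, msps, mtd, nsl1, Pcf11, sol and TRAM.

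Among the genes with a steady leader, the highest mean share in Y332F-eGFP was that of Mnt, which encodes the bHLH-zipper partner of Max that opposes Myc. Its transcript FBtr0301823 held a mean of 67.5% in Y332F-eGFP and 64.6% in Top3b-eGFP. TRAM, a component of the protein translocation site of the endoplasmic reticulum, followed with FBtr0070168 at 66.8% in Y332F-eGFP and 61.7% in Top3b-eGFP. These genes were named after their values were seen.

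The shares of samples within a group and of samples from different groups resembled each other to a like degree. Across the 388 transcripts, Pearson's r of the shares ranged from 0.574 to 0.621 between pairs of Y332F-eGFP samples and from 0.505 to 0.642 between pairs of Top3b-eGFP samples. Between a Y332F-eGFP and a Top3b-eGFP sample it ranged from 0.479 to 0.644. These are descriptions across transcripts, which share libraries and gene sums and are not independent replicates.

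Shares varied between samples of a group by about as much as the groups differed. The SD of a share had a median of 4.82 percentage points in Y332F-eGFP and 6.38 in Top3b-eGFP, and the difference between the group means had a median size of 3.45 points. In 220 transcripts the difference was smaller than both SDs, and in 323 it was smaller than the larger one. Genes with low summed values had the most variable shares. In the third of genes with the lowest mean level the median SD was 8.47 points in Y332F-eGFP and 9.97 in Top3b-eGFP, and in the third with the highest it was 3.56 points in Y332F-eGFP and 4.55 in Top3b-eGFP.

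**Figure D1:**
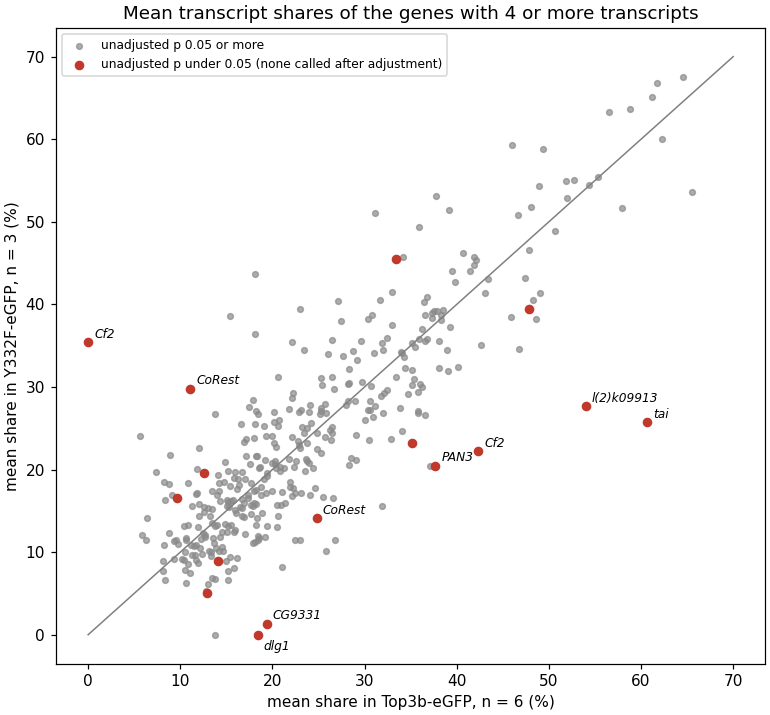
Mean share of each of the 388 transcripts in Y332F-eGFP (vertical axis, percent, n = 3) against Top3b-eGFP (horizontal axis, percent, n = 6), with the line of equal shares. Red points have an unadjusted p under 0.05, and none passed after adjustment. The labelled points lie away from the line, among them a Cf2 transcript listed at 0 in all Top3b-eGFP samples.

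No transcript of these genes changed its share between the groups at an adjusted p under 0.05, and neither did any other transcript of the table (0.0% of 4928). The test was limma on the log2 ratio of a transcript to the rest of its gene, adjusted by Benjamini-Hochberg over all 4928 transcripts, and the smallest adjusted p was 0.951. At an unadjusted p under 0.05 there were 16 of the 388 transcripts (4.12%), in 13 genes, against 3.92% of the whole table. Of these 16, 5 had a higher and 11 a lower share in Y332F-eGFP. A limma test of the share in percent also called 0, with 18 at an unadjusted p under 0.05. In 13 of the 388 transcripts (3.35%) the values of the groups were fully apart, 7 higher and 6 lower in Y332F-eGFP, against 1.97% of the whole table. The 16 and the 13 both include FBtr0336835 of Cf2, which is in the table through the Y332F-eGFP samples alone. Both also include FBtr0081419 of CG9331, which is in the table through Top3b-eGFP samples alone. The 13 include FBtr0290107 of fray, which likewise entered through Top3b-eGFP samples alone. These rows entered through the group where they are high, so the counts depend in part on the selection of rows. How many others of the 16 and the 13 entered in this way is not given here.

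Per gene, Simes' combination of the same p-values called 0 of the 94 genes (0.0% of 2168), with a smallest limma adjusted p of 0.98, and 4 reached an unadjusted p under 0.05 (3.64% of 2168). The F test of limma's diffSplice, an alternative that pools the transcripts of a gene under one variance, called Cf2 (adjusted p 2.7e-05) and CoRest (adjusted p 0.0474) and no other gene of the table. The Cf2 call includes FBtr0336835, which was listed at 0 in all Top3b-eGFP samples and is in the table only through the Y332F-eGFP samples, so it does not support a difference.

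The intervals show how large a change could have gone unseen. The 95% limma interval of a difference in share had a median half-width of 10.6 points, from 4.13 to 47.4. It lay wholly within 20 points of 0 for 281 transcripts and within 10 points for 81. A shift of 20 points was thus outside the interval for most of these transcripts, while a shift of 10 points was within it for most. The mean shares differed by over 10 points in 46 transcripts and by over 20 in 7, which belonged to Cf2, l(2)k09913, Rb97D and tai.

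The leading transcript by mean share differed between the groups in 28 of the 94 genes (29.8%), against 10.6% of all genes in the table. The members have more transcripts to choose from than the rest, so these percentages are not alike in what they count. In 10 of the 28 genes, the leader of Top3b-eGFP led in none of the 3 Y332F-eGFP samples. They were Cf2, cic, Doa, HDAC4, Mtch, par-1, Sin3A, Sxl, tral and ttk. Their leaders in Top3b-eGFP led in 2 to 4 of its 6 samples, so the order was not steady within that group either.

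Among genes of transcription and chromatin, Cf2 (FBgn0000286), which encodes a zinc finger transcription factor first known from the chorion genes, had the largest difference. Its transcript FBtr0336835 held 60.2%, 20.2% and 25.9% in the Y332F-eGFP samples and was listed at 0 in all 6 Top3b-eGFP samples. Every listed transcript reached a value of 10 and a share of 10% in at least 3 of the 9 samples, and this one did so through the Y332F-eGFP samples alone. It could be in the table only by being high there, so the difference in mean share, 35.4 points, is a description with no test. The same selection bears on the other shares of Cf2, since the shares of a gene add up to the whole.

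Another Cf2 transcript, FBtr0089647, held 17.3%, 27.0% and 22.3% in Y332F-eGFP, against 33.2%, 39.0% and 61.3% (lowest, median, highest) in Top3b-eGFP, without overlap (difference -20.2 points, 95% interval -35.1 to -5.24). FBtr0304887 overlapped between the groups, with 22.6%, 33.5% and 24.5% in Y332F-eGFP and 22.1%, 24.8% and 33.4% in Top3b-eGFP. The summed level of Cf2 did not pass the test (log2 change -0.05, limma adjusted p 0.891).

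CoRest (FBgn0261573) encodes a corepressor that works with histone demethylase and deacetylase enzymes. Its transcript FBtr0302860 held 35.4%, 24.8% and 29.2% in Y332F-eGFP, against 5.03%, 8.99% and 22.5% (lowest, median, highest) in Top3b-eGFP. All Y332F-eGFP values lay above all Top3b-eGFP values, by 18.7 points in the means (95% interval 9.29 to 28.1). FBtr0302859 went the other way with overlap, at 8.40%, 19.6% and 14.2% in Y332F-eGFP, against 14.1%, 25.8% and 30.8% in Top3b-eGFP. The other CoRest transcripts, FBtr0302863 and FBtr0302864, overlapped and differed by -5.20 and -2.80 points.

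HDAC4 (FBgn0041210), a class IIa histone deacetylase, exchanged leaders by mean share. Its transcript FBtr0308576 held 40.0%, 45.2% and 51.2% in Y332F-eGFP, against 26.2%, 33.2% and 43.8% in Top3b-eGFP. FBtr0301299 held 26.4%, 25.2% and 18.2% in Y332F-eGFP, against 24.2%, 34.4% and 46.2% in Top3b-eGFP. Both pairs of ranges overlapped, and neither transcript was called.

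tai (FBgn0041092) encodes Taiman, a coactivator of the ecdysone receptor. Its transcript FBtr0303871 held 11.3%, 65.8% and 0% in Y332F-eGFP, against 35.4%, 67.4% and 76.4% in Top3b-eGFP, with a difference of -35.0 points (95% interval -68.1 to -1.81). Y332F-eGFP sample 2 was near the Top3b-eGFP median, so the large mean difference came with a wide spread. For woc, a zinc finger protein gene, FBtr0085178 held 41.5%, 38.4% and 38.3% in Y332F-eGFP, against 43.0%, 48.4% and 53.2% in Top3b-eGFP, without overlap.

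Smaller differences without overlap were seen in Eaf and Su(var)2-10. For Eaf, whose product associates with the elongation factor ELL, FBtr0089009 held 48.4%, 43.5% and 46.8% in Y332F-eGFP, against 35.6%, 41.3% and 42.7% in Top3b-eGFP. For Su(var)2-10, which encodes a PIAS-type SUMO ligase, FBtr0088576 held 32.4%, 33.3% and 34.0% in Y332F-eGFP, against 27.2%, 29.7% and 30.5% in Top3b-eGFP. The mean differences, 5.59 and 4.07 points, were near the median SD of a share.

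**Figure D2:**
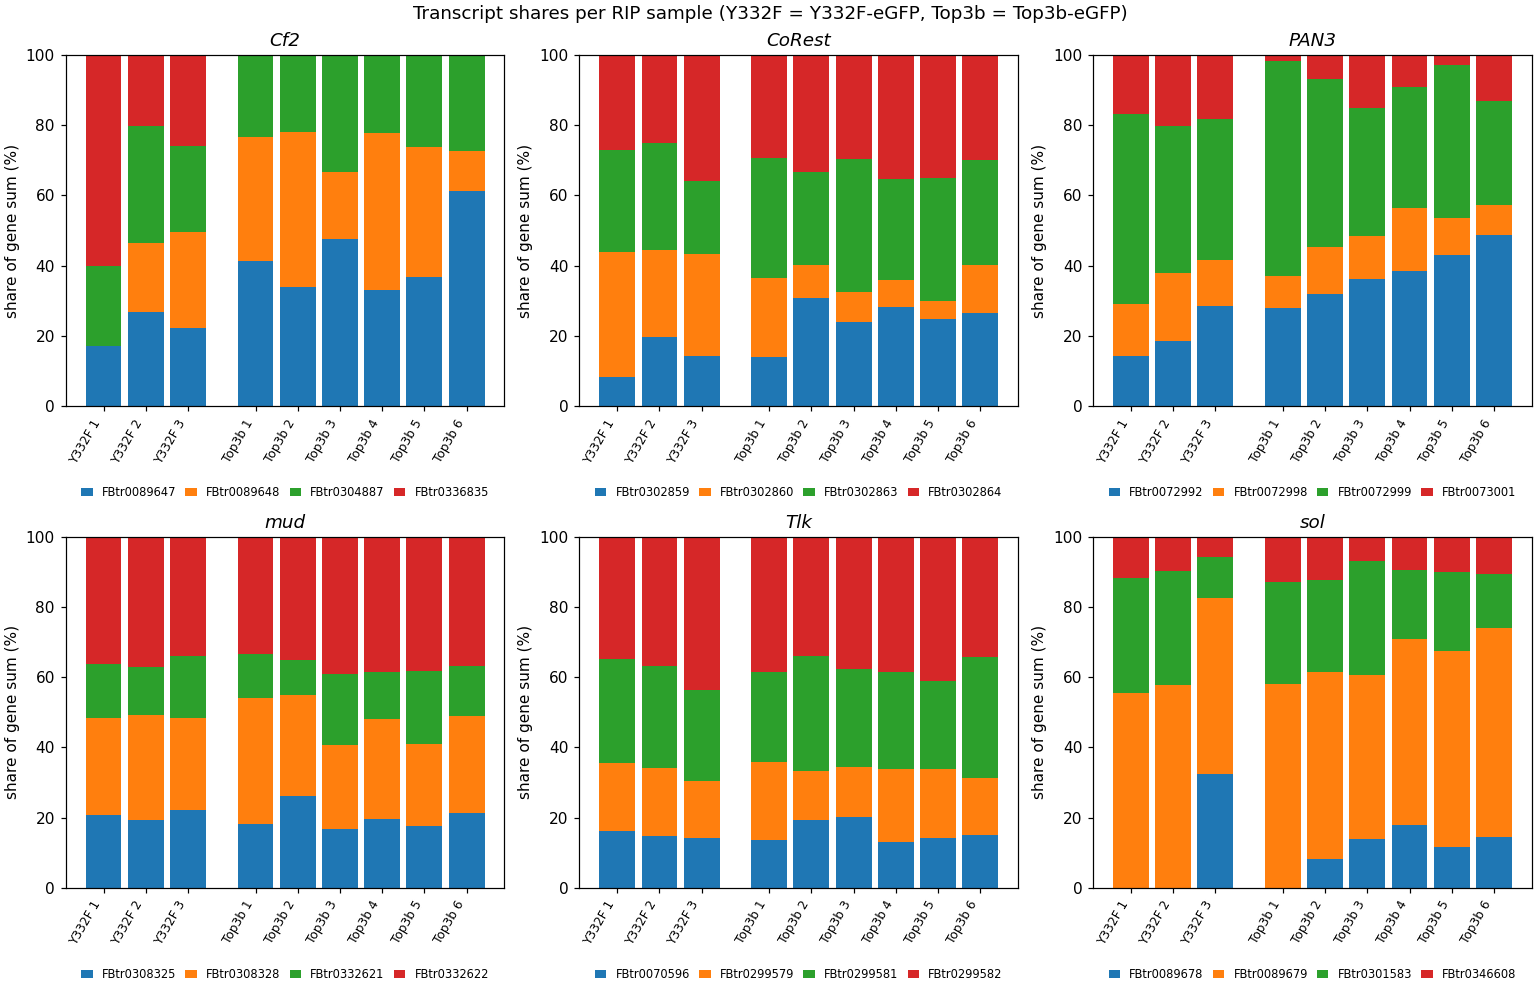
Stacked shares (percent of the gene sum) of the 4 transcripts of Cf2, CoRest, PAN3, mud, Tlk and sol in each RIP sample, the 3 Y332F-eGFP samples left and the 6 Top3b-eGFP samples right, with 1 colour for each transcript. The red Cf2 transcript is at 0 in all 6 Top3b-eGFP samples, while for mud and Tlk the means of the groups are alike and the bands of single samples vary.

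Among genes of RNA regulation, PAN3 (FBgn0035397), a subunit of the PAN2-PAN3 deadenylase that shortens poly(A) tails, kept its leader, FBtr0072999. That transcript held 53.9%, 41.9% and 40.2% in Y332F-eGFP, against 29.4%, 39.9% and 61.1% in Top3b-eGFP. FBtr0072992 held 14.3%, 18.6% and 28.4% in Y332F-eGFP, against 28%, 37.3% and 48.7% in Top3b-eGFP, and the ranges met by a narrow overlap (difference -17.2 points, 95% interval -29.6 to -4.92). FBtr0073001 held 16.9%, 20.2% and 18.3% in Y332F-eGFP, against 1.77%, 7.98% and 15.2% in Top3b-eGFP, without overlap.

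Hrb98DE (FBgn0001215) encodes an hnRNP protein that takes part in splicing. Its transcript FBtr0085298 held 17.1%, 24.5% and 17% in Y332F-eGFP, against 9.07%, 11.9% and 17.3% in Top3b-eGFP. Its leader FBtr0085299 held 38.1%, 33.6% and 43.2% in Y332F-eGFP, against 37.2%, 52% and 56% in Top3b-eGFP. Both overlapped.

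Sxl (FBgn0264270), the splicing regulator of fly sex determination and dosage compensation, had the most RefSeq transcripts of these genes, 25, and 4 in the table. FBtr0331271 held 42.6%, 36.3% and 42.5% in Y332F-eGFP, against 16.1%, 22.7% and 57.2% in Top3b-eGFP. The Y332F-eGFP samples were alike, while the Top3b-eGFP samples spanned them on both sides.

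tral (FBgn0041775), which encodes the Lsm-domain protein Trailer hitch of maternal ribonucleoprotein particles, had 2 transcripts of similar share. FBtr0332635 held 40.8%, 35.5% and 36.1% in Y332F-eGFP, against 29.7%, 32.5% and 37.1% in Top3b-eGFP. FBtr0332636 held 28.8%, 35.1% and 24.2% in Y332F-eGFP, against 30.5%, 36.6% and 40.9% in Top3b-eGFP. The change of leader thus joined 2 overlapping sets of values.

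Rb97D, an RNA-binding protein gene known from the male germ line, had many values at 0 and illustrates what that does to shares. FBtr0100336 held 64.6%, 68.6% and 20.2% in Y332F-eGFP, against 0%, 34.9% and 46.7% in Top3b-eGFP, a difference of 20.02 points with an interval from -9.50 to 49.5. In Doa, which encodes a LAMMER kinase that phosphorylates splicing factors, FBtr0299749 held 0%, 10.4% and 7.97% in Y332F-eGFP, against 11%, 12.3% and 17.6% in Top3b-eGFP, without overlap.

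Among cytoskeleton and polarity genes, dlg1 (FBgn0001624) had the most transcripts. It encodes Discs large, a scaffold of septate junctions and synapses. Its scaled sum was 149.6, 150.4 and 189 in Y332F-eGFP, against 125, 165 and 224 (lowest, median, highest) in Top3b-eGFP.

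The 7 dlg1 shares were unsteady within both groups. FBtr0073489 was listed at 0 in all 3 Y332F-eGFP samples and held 0%, 15.0% and 45.7% in Top3b-eGFP, where 1 sample was also at 0. It is thus in the table through Top3b-eGFP samples alone. FBtr0308089 held 14.8%, 50.6% and 6.59% in Y332F-eGFP, against 0%, 0% and 19.5% in Top3b-eGFP. Their differences were -18.4 points and 18.4 points, and neither was called.

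The other dlg1 transcripts overlapped widely. FBtr0308088 held 31.1%, 0% and 20.9% in Y332F-eGFP, against 0%, 21.9% and 45.2% in Top3b-eGFP. FBtr0333261 held 6.58%, 9.10% and 45.0% in Y332F-eGFP, against 16.7%, 19.1% and 28.7% in Top3b-eGFP. No dlg1 transcript led in every sample of either group.

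**Figure D3:**
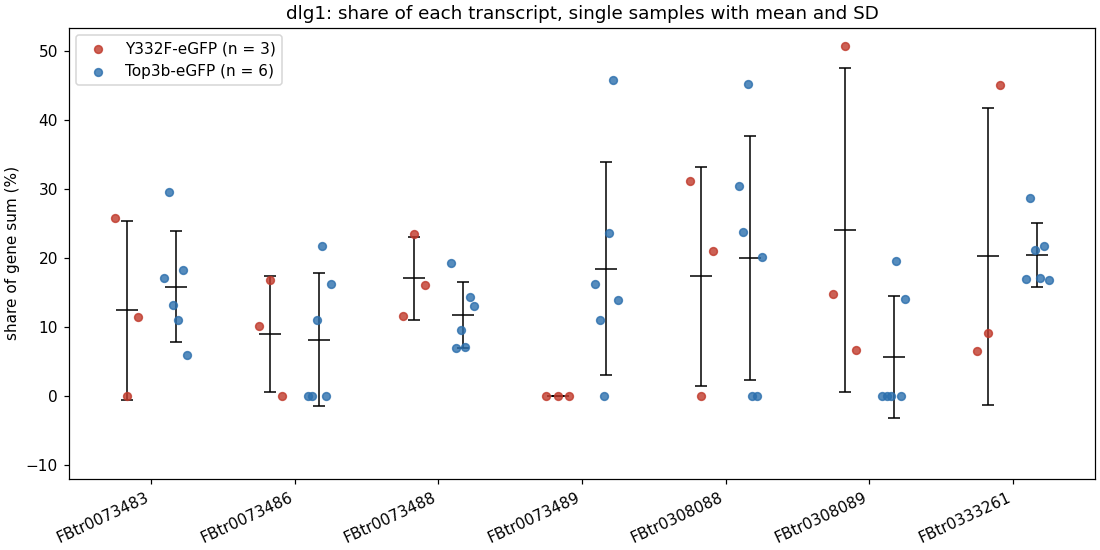
Share (percent of the gene sum) of each of the 7 dlg1 transcripts in the single Y332F-eGFP samples (red, n = 3, left of each pair) and Top3b-eGFP samples (blue, n = 6), with the mean and SD in black. FBtr0073489 is at 0 in every Y332F-eGFP sample, and most other transcripts reach 0 in at least 1 sample.

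mud (FBgn0002873), which encodes a spindle-orienting protein related to vertebrate NuMA, had the smallest differences between the group means, by which it was chosen. Its leader FBtr0332622 held 36.3%, 37.1% and 34.0% in Y332F-eGFP, against 33.3%, 37.5% and 39.0% in Top3b-eGFP, and no mud transcript differed by more than 0.973 points between the means. The interval for this leader ran from -8.97 to 7.02 points. Tlk (FBgn0283657), the Tousled-like kinase of chromatin assembly, came next with a largest difference of 1.01 points. Its leader FBtr0299582 held 34.7%, 36.7% and 43.6% in Y332F-eGFP, against 34.0%, 38.1% and 41.0% in Top3b-eGFP.

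sol (FBgn0003464), a calpain-type protease gene, was the third, with a largest difference of 1.47 points. Its leader FBtr0089679 held 55.6%, 57.7% and 50.1% in Y332F-eGFP, against 46.6%, 54.5% and 59.4% in Top3b-eGFP. Its FBtr0089678 was less steady: it was listed at 0 in 2 Y332F-eGFP samples and held 32.5% in the other, against 0%, 12.9% and 18.0% in Top3b-eGFP.

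Among signalling genes, vap (FBgn0003969), a Ras GTPase-activating protein gene, divided its sum among 5 transcripts. Its leader FBtr0074143 held 30.9%, 30.7% and 21.6% in Y332F-eGFP, against 27.9%, 31.6% and 33.7% in Top3b-eGFP. The 5 differences ran from -5.27 to 6.59 points, each with overlap. In fray, a Ste20-family kinase that controls ion cotransporters, FBtr0290107 held 9.35%, 8.03% and 9.23% in Y332F-eGFP, against 10.3%, 13.9% and 17.1% in Top3b-eGFP, without overlap. No Y332F-eGFP sample reached the 10% share that every listed transcript has in at least 3 samples. FBtr0290107 is thus in the table through Top3b-eGFP samples alone, so its lack of overlap is a description with no test.

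Of the genes given no role here, CG9331 (FBgn0032889) had the transcript with the smallest unadjusted p. FBtr0081419 held 3.99%, 0% and 0% in Y332F-eGFP, against 5.13%, 16.4% and 44.2% in Top3b-eGFP, without overlap (difference -18.1 points). Its Y332F-eGFP shares are all under the 10% that every listed transcript reached in at least 3 of the 9 samples. FBtr0081419 is thus in the table through Top3b-eGFP samples alone, and its p and difference do not support a change. In l(2)k09913, FBtr0071958 held 16.7%, 27.6% and 38.7% in Y332F-eGFP, against 26%, 56.3% and 81.3% in Top3b-eGFP. FBtr0343188 of the same gene held 52.2%, 42.2% and 36.7% in Y332F-eGFP, against 0%, 15.6% and 43.3% in Top3b-eGFP. Both l(2)k09913 transcripts overlapped.

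In contrast to the shares, the summed level of many of these genes differed between the immunoprecipitates. Of the 94 genes 33 changed (35.1%) at a limma adjusted p under 0.05, against 29.8% of the 2168 genes. In Y332F-eGFP 13 rose (13.0% of all genes did) and 20 fell (16.7% of all genes did), and the median log2 change was -0.08 for these genes and 0.01 for all. In 27 of the 33 the ranges of the groups were apart, which the choice of these genes by the test favours. No such count over all genes is given here, so it adds no support. Levels are sums of the deposited values after median-ratio scaling between samples, with no measure of the input RNA of the same embryos used here. In such bulk samples, fewer cells of a type and less RNA per cell cannot be told apart.

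In the genes whose sum was called, the transcripts mostly had the sign of the sum, which the choice by the sum favours. In the 13 genes that rose, the mean scaled value of all 52 transcripts was higher in Y332F-eGFP. In the 20 that fell, it was lower for 78 of 80, and the exceptions were 1 transcript each of CG5504 and Pcf11. Of the 61 genes not called, all transcripts had the same sign in 16. In CoRest 1 of 4 transcripts had the sign of the sum, in dlg1 3 of 7, and in ttk, tral, Sxl and tai 2 of 4.

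These counts depended on the samples and the scaling. With the deposited values left unscaled, limma called 0 of the 94 genes, with 17 at an unadjusted p under 0.05. With Top3b-eGFP samples 1 to 3 alone it called 9, and with samples 4 to 6 alone 46. Without Y332F-eGFP replicate 1, 2 or 3 it called 19, 14 or 19. Without the sample of each group whose column is named by a bare number it called 10.

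Roles were assigned from general knowledge after the values were seen, and no enrichment was tested. Beside all role counts below stand the shares over all genes of the table, 13.0% higher and 16.7% lower in Y332F-eGFP. Of 28 transcription and chromatin genes 1 rose in Y332F-eGFP, 11 fell and 16 did not pass, with a median log2 change of -0.37. skd (FBgn0003415), the Med13 subunit of the Mediator kinase module, fell the most of the 94 genes. Its scaled sums were 1016, 1054 and 1056 in Y332F-eGFP, against 1689, 2558 and 4222 (lowest, median, highest) in Top3b-eGFP, without overlap (log2 change -1.33, SE 0.27, limma adjusted p 0.00597). Top3b-eGFP samples 1 and 2 were the lowest of that group and samples 4 and 5 the highest.

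HDAC4 fell to 556, 538 and 465 in Y332F-eGFP, against 729, 1008 and 1293 in Top3b-eGFP (log2 change -0.90, SE 0.20, limma adjusted p 0.00696). Sin3A (FBgn0022764), the scaffold of a histone deacetylase complex, was at 1881, 1961 and 1803 in Y332F-eGFP and at 2714, 3333 and 4502 in Top3b-eGFP (log2 change -0.87, SE 0.18, limma adjusted p 0.00659). Neither gene overlapped between the groups. kis, a CHD-type chromatin remodeller, Hr4, a nuclear receptor of the ecdysone response, woc, nsl1, cic, H, cg and psq also fell, by between 0.47 and 1.00 on the log2 scale. The groups overlapped in kis, Hr4, cic and H, and did not in woc, nsl1, cg and psq. The gene that rose was Eaf (log2 change 0.54, limma adjusted p 0.0331).

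Of 11 signalling genes 6 rose in Y332F-eGFP and 5 did not pass the test, with a median log2 change of 0.67. 14-3-3zeta (FBgn0004907), an adapter that binds phosphorylated proteins, was at 1287, 1355 and 1687 in Y332F-eGFP, against 621, 763 and 978 in Top3b-eGFP (log2 change 0.93, SE 0.17, limma adjusted p 0.00421). drk (FBgn0004638), the fly Grb2 adapter that links receptor tyrosine kinases to Ras, was at 462, 508 and 786 in Y332F-eGFP, against 207, 310.0 and 398 in Top3b-eGFP (log2 change 0.92, SE 0.22, limma adjusted p 0.0113). In both, every Y332F-eGFP sample lay above every Top3b-eGFP sample.

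conu, which encodes a RhoGAP that binds Moesin, rose with 814, 879 and 1076 in Y332F-eGFP, against 343, 485 and 568 in Top3b-eGFP. Graf, another RhoGAP gene, rose by 0.76 on the log2 scale (SE 0.20, limma adjusted p 0.0156). CkIIbeta, the regulatory subunit of casein kinase 2, and Galphaq, a G protein subunit of phototransduction, rose with overlap of the groups, at log2 changes of 0.74 and 0.54. The transcript shares of 14-3-3zeta stayed within 4.88 points of each other in the means, with no transcript called.

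Of the 15 RNA regulation genes 2 rose and 2 fell, with a median log2 change of 0.26. kra (FBgn0250753), a regulator of translation, was at 5589.7, 5833 and 5377 in Y332F-eGFP, against 2388, 3102 and 4807 in Top3b-eGFP (log2 change 0.76, SE 0.21, limma adjusted p 0.0189). Pur-alpha, which encodes a single-stranded nucleic acid binding protein, was at 118, 142 and 180.4 in Y332F-eGFP, against 36.9, 76.5 and 85.2 in Top3b-eGFP. Both were higher in every Y332F-eGFP sample. tyf, whose product aids the translation of the clock gene period, fell to 2099, 2124 and 2023 in Y332F-eGFP, against 2438, 3522 and 4911 in Top3b-eGFP. Pcf11, a factor of mRNA 3-prime end cleavage, fell by 0.49 on the log2 scale (SE 0.16, limma adjusted p 0.0354).

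The levels of tral and of Hrb27C, an hnRNP gene, were not called. tral was at 8687, 8799 and 8088 in Y332F-eGFP, against 7709, 8173 and 12293 in Top3b-eGFP (log2 change -0.02, limma adjusted p 0.933). Hrb27C was at 7789.6, 8513 and 8421 in Y332F-eGFP, against 4265, 6831 and 9631 in Top3b-eGFP (log2 change 0.28, limma adjusted p 0.421). Sums are not divided by transcript length, so these levels are not compared between genes.

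Of the 12 cytoskeleton and polarity genes 1 rose and 4 fell. mud fell to 1240.3, 1155 and 1172 in Y332F-eGFP, against 1339, 2243 and 3054 in Top3b-eGFP (log2 change -0.85, SE 0.23, limma adjusted p 0.018), while its mean shares differed by at most 0.973 points. syd and milt, which encode adapters of kinesin-borne cargo, and msps, a microtubule polymerase gene, fell by between 0.48 and 0.77 on the log2 scale, each without overlap. homer, a postsynaptic scaffold gene, rose (log2 change 0.49, SE 0.15, limma adjusted p 0.0253).

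The 8 genes of membrane, trafficking and mitochondria did not pass the limma test (0 at an unadjusted p under 0.05), and their log2 changes ran from -0.25 in Atpalpha to 0.28 in Vsp37A. Of the 20 other genes 3 rose and 3 fell. sol fell to 1030.4, 1032 and 1096 in Y332F-eGFP, against 1434, 2311 and 3292 in Top3b-eGFP (log2 change -1.10, SE 0.25, limma adjusted p 0.00845). mrj, a DnaJ-type cochaperone gene, rose with 839.7, 825 and 832 in Y332F-eGFP, against 357, 461 and 599 in Top3b-eGFP (log2 change 0.89, SE 0.17, limma adjusted p 0.00524).

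Broader lists of textbook genes, drawn up with earlier results of these data known, give the setting; 29.8% of all genes in the table were called, 13.0% higher and 16.7% lower. Of the chromatin and transcription list 36 genes were in the table, of which 3 rose and 11 fell, and of its 9 members here 0 rose and 3 fell. Of the RNA binding list 30 were in the table, of which 6 rose and 5 fell, and of its 4 members here (Hrb27C, Hrb98DE, Sxl and tyf) only tyf passed. Of the signalling list 39 were in the table, of which 8 rose and 6 fell, and its single member here, drk, rose. The cytoskeleton and adhesion list had 31 genes in the table (3 rose, 7 fell) and 4 members here, Abl, dlg1, Moe and par-1, which did not pass. The ion transport and membrane list had 22 (2 rose, 4 fell) and 3 members, Atpalpha, shi and wnd, which did not pass either. The translation list had 15 (5 rose, 0 fell) and no member. With so few members, these counts say nothing particular of the lists.

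**Figure D4:**
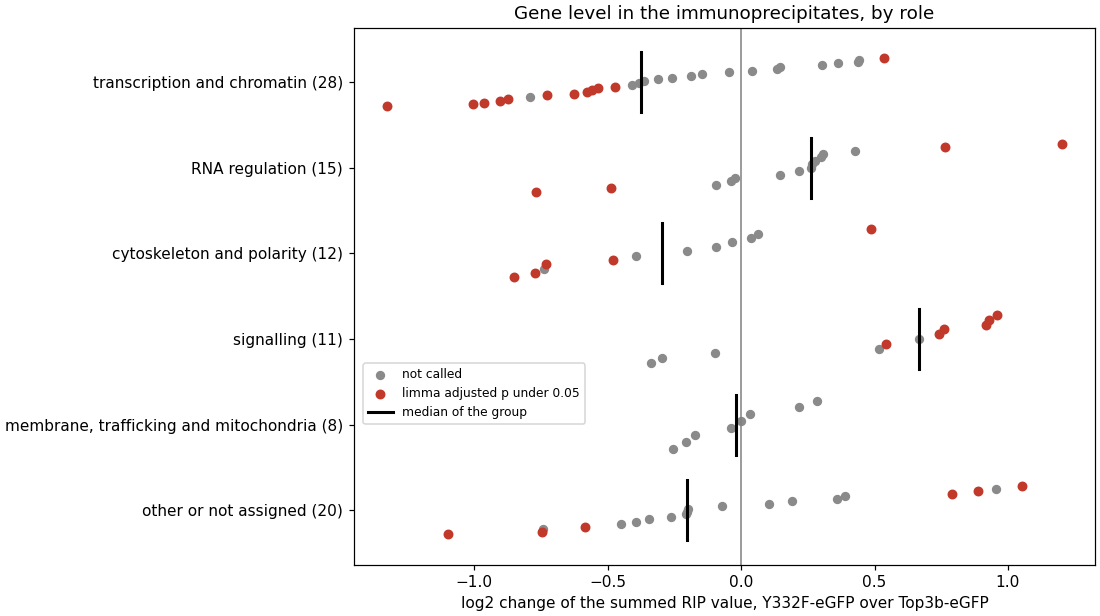
Log2 change of the summed level in Y332F-eGFP over Top3b-eGFP (horizontal axis) for each of the 94 genes, grouped by role with the number of genes in brackets. Red points passed limma at an adjusted p under 0.05, and black bars are group medians. Of the red points of transcription and chromatin 11 lie left of 0 and 1 right of it, and the 6 of signalling lie right of it.

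The total RNA data give the level of the same genes in embryos of untagged mutants, per gene and not per transcript. They are separate embryos from those of the immunoprecipitation, and all 3 mutants were compared with the same 3 wild-type samples, so the comparisons are not independent. All 94 genes passed the filter on low counts, which 10238 features passed. Total counts ran from 22400118 to 31125584 per sample.

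In Y332F 35 of the 94 genes changed (37.2%) by edgeR's quasi-likelihood test at an adjusted p under 0.05, against 43.5% of all features. Of these 24 rose (15.3% of all features did) and 11 fell (28.2% of all features did). In Top3b26 41 changed (43.6%), against 57.1% of all features, with 28 higher (23.5%) and 13 lower (33.7%). In delRGG 5 changed (5.32%), against 5.87% of all features, with 2 higher (3.17%) and 3 lower (2.7%). The median log2 change of the 94 genes was 0.09 in Y332F, 0.12 in Top3b26 and 0.07 in delRGG, and that of all features was -0.04 in each.

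Markers of embryonic tissues moved with the genotypes. The summed CPM of 3 muscle genes ranged from 188 to 361 in Y332F, from 77.7 to 215 in Top3b26, from 188 to 2280 in delRGG and from 1360 to 4950 in wild type. Those of 3 neuronal genes ranged from 36.1 to 55.2 in Y332F, from 14.5 to 46.0 in Top3b26, from 40.7 to 137 in delRGG and from 116 to 218 in wild type. The 3 cuticle genes ranged from 6.33 to 12.1 in Y332F, from 3.98 to 9.26 in Top3b26, from 3.94 to 59.7 in delRGG and from 39.1 to 108 in wild type. The 2 maternal genes found, of 3 listed, ranged from 484 to 526 in Y332F, from 525 to 586 in Top3b26, from 427 to 475 in delRGG and from 363 to 427 in wild type. The 6 zygotic patterning genes ranged from 39.1 to 49.7 in Y332F, from 13.9 to 31.0 in Top3b26, from 24 to 63.5 in delRGG and from 32.9 to 43.7 in wild type. None of these markers was at 0 in all 3 samples of a group, and their part in the results was not tested.

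Most changes of these genes were small, and 5 in Y332F, 7 in Top3b26 and 2 in delRGG were called at 2-fold or more. The matching counts over all features are not given here, so these are not compared with the rest. CG43897, whose role is not given here, fell the most in Y332F and Top3b26. It was at 14, 8.64 and 13.0 CPM in Y332F, at 8.85, 4.36 and 3.08 in Top3b26, at 90.8, 23.3 and 6.89 in delRGG, and at 66.1, 101 and 246 in wild type. The log2 change was -3.54 in Y332F (SE 0.83, edgeR adjusted p 0.0109), -4.65 in Top3b26 (SE 0.88, edgeR adjusted p 0.00263) and -1.77 in delRGG, where the samples spread widely and the test was not passed (SE 0.77, edgeR adjusted p 0.213).

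vap, the Ras GTPase-activating protein gene, was at 156, 169 and 192 CPM in Y332F, at 8.20, 10.8 and 8.99 in Top3b26, at 151, 149.9 and 185 in delRGG, and at 127, 134 and 137 in wild type. It fell in Top3b26 by 3.83 on the log2 scale (SE 0.13, edgeR adjusted p 1.1e-08) and rose in Y332F (log2 change 0.38, SE 0.11, edgeR adjusted p 0.0224). In delRGG the change was 0.29 (SE 0.11, edgeR adjusted p 0.173). The Top3b26 samples lay far below all others, which ran from 127 to 192.

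CG41378 was higher in all 3 mutants, at 19.4, 23.6 and 24.8 CPM in Y332F, 32.5, 35.6 and 32.9 in Top3b26 and 21.5, 27.7 and 28.9 in delRGG, against 9.62, 8.32 and 10.8 in wild type. The log2 changes were 1.24, 1.81 and 1.44, each called by edgeR. CG9331 was lower in all 3, at 20.6, 14.5 and 20.7 in Y332F, 18.7, 20.7 and 23.7 in Top3b26 and 14.4, 8.57 and 9.13 in delRGG, against 42.5, 50.6 and 63.6 in wild type. The log2 changes were -1.49, -1.31 and -2.28, each called by edgeR. For both genes no mutant sample overlapped with wild type.

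wnd, a kinase gene of the JNK pathway in neurons, was lower in all 3 mutants with log2 changes of -0.64 in Y332F, -0.45 in Top3b26 and -0.46 in delRGG. CG5504 was higher in all 3, with 0.50, 0.49 and 0.52. The last of the 5 genes called in delRGG was mrj, which fell by 0.47 there (edgeR adjusted p 0.0207) and by 0.32 in Y332F (edgeR adjusted p 0.0273), and did not pass in Top3b26. Galphaq fell in Y332F (log2 change -1.25) and Top3b26 (-1.72), as did kmr (-1.21 and -1.91), and Hr4 fell in Top3b26 (-1.65) by edgeR.

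By role, 9 of the 28 transcription and chromatin genes rose in Y332F total RNA and the others did not pass, with a median log2 change of 0.22. Of all features 15.3% rose and 28.2% fell in Y332F, and no enrichment of these roles was tested. Of the 12 cytoskeleton and polarity genes 4 rose. Of 11 signalling genes 1 rose and 3 fell, and of 15 RNA regulation genes 1 rose and 2 fell.

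Side by side, several genes had opposite signs in the 2 kinds of data. HDAC4 was at 263, 269.5 and 247 CPM in Y332F, against 209, 194 and 165 in wild type (log2 change 0.46, SE 0.09, edgeR adjusted p 0.00681), and its change in the immunoprecipitates was -0.90. 14-3-3zeta was at 501, 479 and 473 in Y332F, against 623, 673 and 889 in wild type (log2 change -0.59, SE 0.12, edgeR adjusted p 0.00622), and its change in the immunoprecipitates was 0.93. mrj likewise fell in Y332F total RNA and rose in the Y332F-eGFP immunoprecipitates. The lines, the controls and the units differ, and the difference between the 2 kinds of data was not tested.

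The 5 genes with the largest differences in mean share, Cf2, tai, l(2)k09913, Rb97D and CoRest, are given here in total RNA. Cf2 was at 92.7, 97.0 and 114 CPM in Y332F, against 92.7, 74.0 and 80.8 in wild type (log2 change 0.29, SE 0.11, edgeR adjusted p 0.0553). CoRest was at 509.7, 503 and 412 in Y332F, against 375, 382 and 336 in wild type, and rose (log2 change 0.38, SE 0.10, edgeR adjusted p 0.0128). tai was at 75.2, 68.2 and 82.9 in Y332F, against 109, 87.0 and 114 in wild type (log2 change -0.45, SE 0.19, edgeR adjusted p 0.0766), and fell in Top3b26 (log2 change -0.55, SE 0.19, edgeR adjusted p 0.0302). l(2)k09913 rose in Y332F (log2 change 0.18, SE 0.06, edgeR adjusted p 0.0328) and in Top3b26 (log2 change 0.33, edgeR adjusted p 0.0023). Rb97D did not pass in Y332F (log2 change -0.09, edgeR adjusted p 0.309) and fell in Top3b26 (log2 change -0.26, edgeR adjusted p 0.00959). The counts are per gene and say nothing of which transcript was present.

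**Figure D5:**
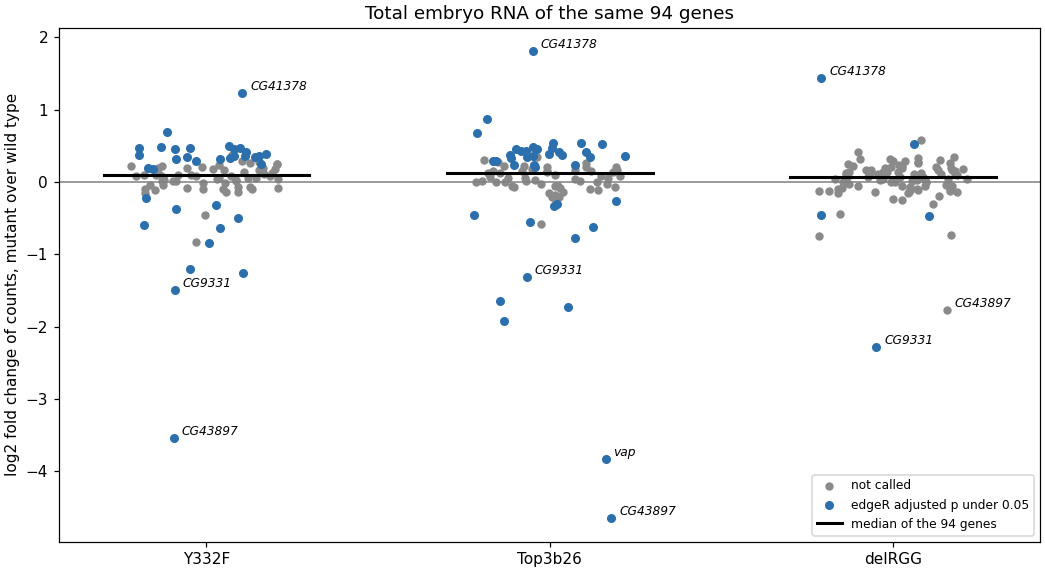
Log2 fold change of total RNA counts over wild type (vertical axis) for the 94 genes in Y332F, Top3b26 and delRGG, 1 point per gene, with blue points called by edgeR and black bars at the median of the 94 genes. vap lies far below 0 in Top3b26 and above the median in the other mutants, and CG41378 lies above 1 in Y332F, Top3b26 and delRGG.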

How the data were processed

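RNA from embryos was measured in 9 RIP-seq samples (3 Y332F-eGFP, 6 Top3b-eGFP) and 12 total RNA samples (3 each of Y332F, Top3b26, delRGG and wild type), grouped by the sample titles. Trizol extraction, Lexogen CORALL total RNA libraries and paired-end sequencing are given per the labels' protocols. The submitters' processing notes name bcl2fastq, HISAT2, featureCounts and DESeq2 without versions. The genome build, the annotation release, the strand setting and the use of each tool are not given in the sources used here, so values of overlapping genes, antisense genes and paralogs are uncertain. The total RNA table as deposited holds raw counts of each gene. The RIP-seq table as deposited holds a signal for each transcript that its name calls normalized counts; the normalization is not given in the sources used here. That table was already selected: over the 9 columns used, every transcript reached a value of 10 and a share of 10% in at least 3, so a share is of the listed transcripts only. A further 3 value columns match no sample label and were left out, and 2 of the 9 (1 per group) were matched by a bare number in their name.

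Transcript shares, per-gene Simes p-values and gene levels were computed with limma 3.58.1 in R 4.3.3, with a pseudocount of 1 and Benjamini-Hochberg adjustment over the whole table, and called at an adjusted p under 0.05. Fold changes are therefore on the log2(value + 1) scale, which understates changes of low values. Gene levels were scaled by median ratios. Total RNA was tested with edgeR 4.0.16 (quasi-likelihood, TMM, filterByExpr with a minimum count of 10, all 12 samples in 1 fit). DESeq2 1.42.0 served as an alternative, with other pseudocounts, filters, scalings, sample weights, subsets of samples and each replicate left out. Methods were tested on simulated data. Figures were drawn with Python 3.11.15 and matplotlib 3.10.9. The depth of the RIP-seq libraries is unknown, so no counting intervals are given for them. Nothing in the labels says whether replicates came from separate cultures or cages, so p-values measure the spread between these samples, which may be technical.

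The genes and gene lists were chosen with earlier results of these data known. The rule for named genes took called genes and transcripts, of which there were none, then the genes with the most transcripts (dlg1, with 9 genes tied after it) and the 3 with the smallest differences (mud, Tlk and sol). All other genes were named after their values were seen.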

Additional observations from a re-analysis of the deposited data

Results flagged for a closer look

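Of 70 named values examined within the 6 Top3b-eGFP samples, 5 had 1 sample far from the others by Dixon's test at its 95% critical value; chance alone marks about 1 in 20 such groups. The share of CG9331 FBtr0081419 was 44.18% in sample 4, with the next highest at 18.44%. The share of Eaf FBtr0089009 was 35.61% in sample 3, with the next lowest at 40.3%. The share of Doa FBtr0299749 was 17.65% in sample 3, with the next highest at 12.75%. The share of homer FBtr0332330 was 35.25% in sample 6, with the next highest at 24.69%. The scaled level of tral was 12290.0 in sample 3, with the next highest at 8570.0.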

How the results depend on the processing

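For single transcripts, the count called by limma was 0 in the analysis reported, in all 12 other settings and without each replicate in turn (0 to 0), with 7 to 26 of the 388 at an unadjusted p under 0.05. For isoform shifts per gene it was 0 in 12 of 13 settings and without each replicate (0 to 0), and 2 by diffSplice.

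The 33 genes called at the summed level became 0 with unscaled values, 10 without the samples named by a bare number, and 9 with Top3b-eGFP samples 1 to 3 only, a setting added after the data were seen. Leaving out a replicate gave 14 to 37. Of the 9 and of the 10, all were among the 33. The scalings moved the median of all genes by less than 0.1. In total RNA, leaving out a replicate gave 19 to 36 genes in Y332F (19 without wild-type replicate 3, 21 without Y332F replicate 1), 29 to 44 in Top3b26 and 3 to 7 in delRGG. In delRGG, DESeq2 called 14 and a fit of the 2 groups alone 2. The causes were not tested.

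The replicate numbers were not used as pairs. Deviations of same-numbered samples correlated at 0.05, -0.01 and 0.24 for the log2 ratio of a transcript to the rest of its gene. In no comparison were the correlations above 0.1 in every pair. In total RNA they ran from -0.652 (delRGG replicate 3) to 0.521 (Top3b26 replicate 2). With so few samples, these values cannot settle whether samples were paired. With a replicate block the counts were 0 for transcripts, 0 for isoform shifts, 5 for gene levels (samples 1 to 3 of each group), 40 in Y332F, 46 in Top3b26 and 7 in delRGG.

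Limits are the 3 Y332F-eGFP samples, zeros in 45 of the 94 genes, unknown RIP-seq depth and shares limited to the listed transcripts.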
